A study of Mus musculus with 29 samples.

Results

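The nuclear genes of oxidative phosphorylation were examined in kidney, tertiary lymphoid structures (TLS) and lymph nodes of lupus-prone mice. Members were chosen by symbol alone, as all genes listed under Ndufa, Ndufb, Ndufc, Ndufs or Ndufv with a number, Sdha to Sdhd, Uqcr, Cox4 to Cox8 and Atp5. These were 82 of the 13982 genes listed, 35 of complex I, 4 of complex II, 8 of complex III, 18 of complex IV and 17 of complex V. Ndufa4 and Ndufa4l2 were counted with complex IV, of which Ndufa4 is now held to be a subunit. Atp5s and Atp5sl fell under complex V by symbol alone; RefSeq now lists them as Dmac2l and Dmac2, and Dmac2 is known as an assembly factor of complex I, not as a subunit of the ATP synthase. All mice were (NZBxNZW)F1 mice, a cross that develops antibodies to double-stranded DNA and nephritis with age, and no treatment or engineered allele is given in the labels. TLS, which are organized aggregates of lymphocytes outside lymphoid organs, were dissected by hand under a loupe from the kidneys of proteinuric mice, so the piece may hold adjacent kidney tissue.

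The proteinuric group held kidney of 4 mice (mouse 6 aged 39 weeks, mouse 20 aged 36 weeks, a mouse aged 32 weeks and a mouse aged 25 weeks), TLS of 3 of them (all but the mouse aged 32 weeks) and lymph node of 3 (all but the mouse aged 25 weeks). Lymph node was also measured in 3 antibody-positive mice (mouse 10 aged 28 weeks, mouse 11 aged 29 weeks and mouse 25 aged 18 weeks) and in 1 library labelled young (mouse 45 aged 4 weeks), which had no replicate. The antibody-positive samples were isolated with a kit that no other sample had, so kit and state cannot be told apart. Age cannot be told apart from state either, since the antibody-positive mice were 18 to 29 weeks old and the proteinuric mice with lymph node 32 to 39 weeks. Unless stated otherwise, lymph node means that of the proteinuric mice.

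Oxidative phosphorylation is the final step of respiration in mitochondria. Complex I takes electrons from NADH and complex II takes them from succinate, complex III passes them to cytochrome c, and complex IV passes them on to oxygen. Complexes I, III and IV pump protons as they do so, and complex V, the ATP synthase, uses the return of the protons to make ATP. Most subunits are encoded in the nucleus and a few in mitochondrial DNA (mtDNA), while complex II is encoded wholly in the nucleus. The proximal tubule of the kidney, which reabsorbs most of the filtrate, is rich in mitochondria, whereas resting lymphocytes have few. Brown adipocytes have many, and use them to produce heat through the uncoupling protein Ucp1.

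The values are whole reads with 1 added, over a size factor per library, and are called normalized values here. The 14 libraries held between 343825 and 443379 reads, and a count of 3 reads corresponded to a normalized value between 3.14 and 7.1. The share of ribosomal RNA genes was 59.6% in kidney of the mouse aged 32 weeks, 32.8% in lymph node of mouse 6, 24.6% in TLS from the mouse aged 25 weeks, and 7.58% or less in the others. Of 10 proximal tubule markers, all had reads in each kidney library (summed normalized value 6810 to 18700) and in each TLS library (1110 to 7180), and at most 1 of the 10 (Kap) had a read in any lymph node library. All 7 B-cell markers had reads in each TLS and lymph node library. Lymph node libraries differed in brown adipocyte markers, which are given beside the isoform genes below. All 8 striated muscle markers had reads in the antibody-positive lymph node of mouse 25, whereas at most 2 of the 8 had a read in any other library.

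Promoters are shown first for 4 members called in the comparison of kidney and lymph node and for Cox8b and Cox7a1, tissue isoforms that did not pass the test. Promoters were found in the RefSeq table (GRCm38.p6, 250 bases before to 50 after the start of the first listed transcript) for 68 of the 82 members. Members without a match included Atp5a1, Cox4i1, Cox4i2, Cox6a2, Cox6c, Ndufa2, Ndufa4l2, Ndufb9, Ndufs1, Sdhc, Uqcrb, Uqcrc2 and Uqcrq. Capitals mark matches, on either strand, to the 5 motifs searched, CGCATGCG (NRF1 core), CCGGAAG (ETS factors such as GABP), AAGGTCA (estrogen-related receptors), AAGATGGC (YY1) and GGGCGGG (SP1).
Ndufb4 (chr16:37654319-37654618, minus strand): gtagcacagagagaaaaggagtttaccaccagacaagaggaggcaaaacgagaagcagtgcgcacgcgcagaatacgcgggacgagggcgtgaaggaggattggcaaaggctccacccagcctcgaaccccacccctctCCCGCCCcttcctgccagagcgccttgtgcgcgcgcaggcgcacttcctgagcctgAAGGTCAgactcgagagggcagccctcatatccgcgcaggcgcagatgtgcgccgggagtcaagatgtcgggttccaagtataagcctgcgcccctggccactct
Atp5g3 (chr2:73911277-73911576, minus strand): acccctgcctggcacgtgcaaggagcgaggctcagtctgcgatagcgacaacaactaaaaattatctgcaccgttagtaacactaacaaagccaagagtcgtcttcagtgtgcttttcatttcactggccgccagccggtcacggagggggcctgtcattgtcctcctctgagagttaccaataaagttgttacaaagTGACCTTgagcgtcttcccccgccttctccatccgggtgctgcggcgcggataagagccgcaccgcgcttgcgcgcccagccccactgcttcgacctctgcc
Cox6a1 (chr5:115348909-115349208, minus strand): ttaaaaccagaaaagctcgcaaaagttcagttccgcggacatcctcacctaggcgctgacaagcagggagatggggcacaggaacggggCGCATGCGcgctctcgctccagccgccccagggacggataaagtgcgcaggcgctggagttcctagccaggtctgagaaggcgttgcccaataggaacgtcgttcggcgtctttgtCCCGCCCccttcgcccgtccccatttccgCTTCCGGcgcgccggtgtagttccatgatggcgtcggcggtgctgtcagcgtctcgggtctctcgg
Cox8a (chr19:7217567-7217866, minus strand): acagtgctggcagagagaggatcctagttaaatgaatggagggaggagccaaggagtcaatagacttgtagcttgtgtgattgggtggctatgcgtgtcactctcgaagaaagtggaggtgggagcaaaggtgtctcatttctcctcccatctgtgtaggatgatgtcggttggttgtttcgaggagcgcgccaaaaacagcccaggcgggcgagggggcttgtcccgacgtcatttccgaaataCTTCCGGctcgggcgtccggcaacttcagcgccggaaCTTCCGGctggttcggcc
Cox8b (chr7:140900397-140900696, minus strand): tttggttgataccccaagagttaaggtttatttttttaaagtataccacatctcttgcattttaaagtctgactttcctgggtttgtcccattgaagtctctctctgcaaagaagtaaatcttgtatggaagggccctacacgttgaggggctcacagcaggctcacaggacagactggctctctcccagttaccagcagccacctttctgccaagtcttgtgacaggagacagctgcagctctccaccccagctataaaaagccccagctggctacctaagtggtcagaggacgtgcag
Cox7a1 (chr7:30183921-30184220, plus strand): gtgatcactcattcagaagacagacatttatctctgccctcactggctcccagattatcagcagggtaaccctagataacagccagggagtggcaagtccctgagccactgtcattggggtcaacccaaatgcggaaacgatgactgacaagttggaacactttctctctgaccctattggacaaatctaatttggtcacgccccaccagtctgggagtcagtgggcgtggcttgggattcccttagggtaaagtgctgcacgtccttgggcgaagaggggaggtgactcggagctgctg
The 300 bases of Cox8b held 2 CG pairs and those of Cox7a1 held 7, against 23 in Ndufb4, 21 in Atp5g3, 32 in Cox6a1 and 19 in Cox8a. The median was 19 over the 66 members tested below that have a promoter here and 21 over the promoters of 5186 genes tested. Of these, 3 of the 66 members and 789 of the 5186 genes had 7 or fewer CG pairs. Neither Cox8b nor Cox7a1 held any of the 5 motifs in this window, whereas the 4 called members shown did. Other members also held none, among them Cox7c, Ndufa12, Atp5g1, Sdha and Ndufv1, all of which were called. The lack of a motif therefore does not set Cox8b and Cox7a1 apart from called members.

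The NRF1 core was present in 8 of the 66 member promoters (12.1%), against 4.03% of the 5186. The motif of the estrogen-related receptors was also present in 8 (12.1%), against 3.28%, and the YY1 motif in 10 (15.2%), against 5.28%. The ETS motif was in 15 member promoters (22.7%), against 19.7%, and the SP1 motif in 21 (31.8%), against 48.5%. Over all 27025 promoters listed, whether or not the gene was tested, the shares were 1.91%, 4.66%, 2.88%, 9.12% and 25.8% in the order NRF1, estrogen-related receptor, YY1, ETS and SP1. These matches are a description of the letters in the window.

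Kidney had the highest share of nuclear reads on the members. In kidney the 82 genes took 5.89% of the nuclear reads outside ribosomal RNA genes in the mouse aged 25 weeks, 6.51% in the mouse aged 32 weeks, 4.27% in mouse 20 and 3.28% in mouse 6 (4.99% ± 1.48, SD, n = 4). In TLS the share was 3.41% in the youngest of the mice, aged 25 weeks, 2.7% in mouse 20 and 2.09% in mouse 6 (2.73% ± 0.659, SD, n = 3), and in lymph node 1.3%, 2.2% and 1.98% in the mouse aged 32 weeks, mouse 20 and mouse 6 (1.82% ± 0.47, SD, n = 3). The kidney libraries were above each lymph node library, whereas kidney of mouse 6 was below the highest TLS library. The 95% Wilson interval of each share, which covers counting error only, was narrow next to the spread between mice, for example 3.22% to 3.35% in kidney of mouse 6. These are bulk tissues, in which fewer cells of a type and less RNA per cell cannot be told apart.

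**Figure D1:**
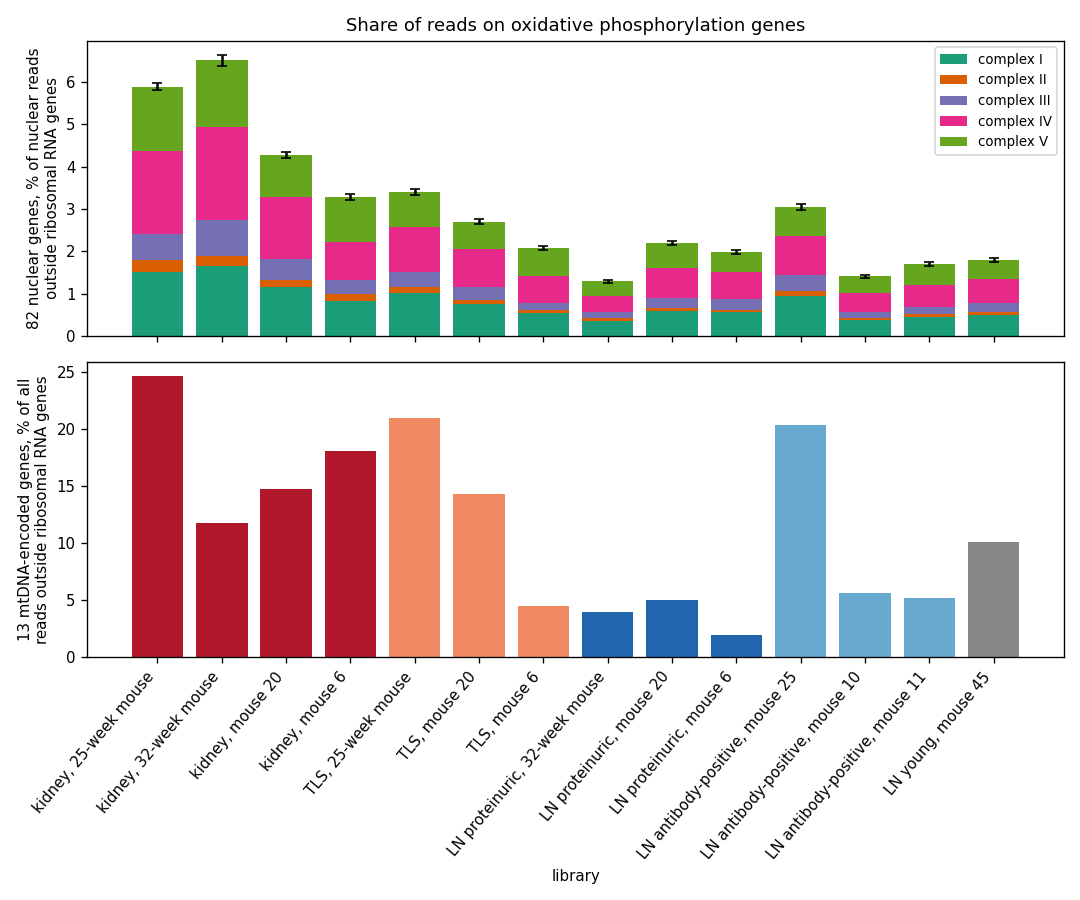
Share of reads on oxidative phosphorylation genes in each of the 14 libraries. The upper panel stacks the 5 complexes as a percent of nuclear reads outside ribosomal RNA genes, with the 95% Wilson interval of the total, and shows kidney between 3.28% and 6.51% and lymph node of proteinuric mice at 2.2% or less; the lower panel gives the 13 mtDNA-encoded genes as a percent of all reads outside ribosomal RNA genes.

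The order within kidney was shared by most members. Kidney of the mouse aged 25 weeks had the highest of the 4 kidney values in 54 of the 77 members tested (70.1%; 32.1% of all 7382 genes tested), and kidney of mouse 6 had the lowest in 57 (74.0%; 17.0% of all genes). The summed value of the proximal tubule markers was 18700 in the kidney of the mouse aged 25 weeks, 16800 in that of the mouse aged 32 weeks, 9430 in that of mouse 20 and 6810 in that of mouse 6. The 2 kidneys with the higher marker sums, which came from the 2 younger mice, also had the higher shares on members. The sums are normalized values and the shares are percents of nuclear reads, so the order within that pair was not compared. In TLS the marker sum was 7180, 4120 and 1110 in the mouse aged 25 weeks, mouse 20 and mouse 6, which is the order of the members' share in TLS. The part of proximal tubule cells and of age in the members' values was not tested.

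In lymph node, the mouse aged 32 weeks had the lowest value in 72 of the 77 members (93.5%; 37.4% of all genes). Among the antibody-positive lymph nodes, that of mouse 25 had the highest value in 71 of the 77 (92.2%; 41.9% of all genes). The members thus went up and down together from library to library within a group, which the map of members by library shows.

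**Figure D2:**
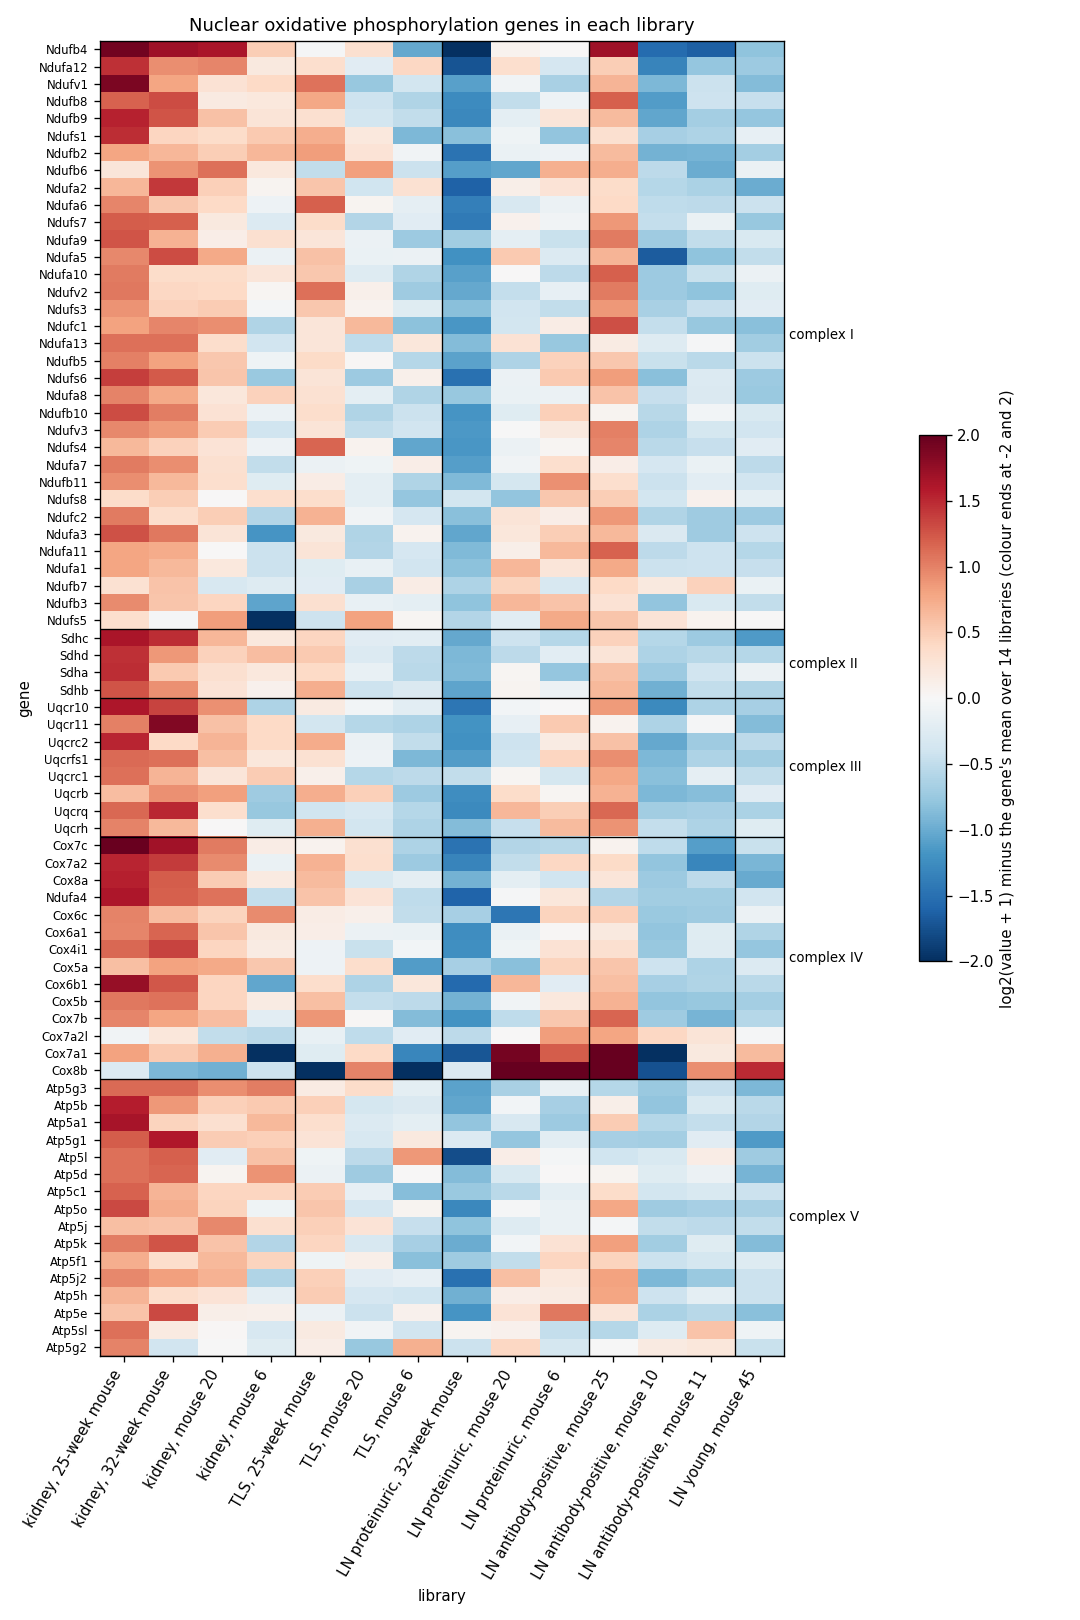
Heat map of 76 of the 77 members tested (rows, grouped by complex) in 14 libraries (columns, grouped by tissue and state). Colour gives log2(value + 1) minus the gene's mean over the 14 libraries, and red columns of kidney, the blue column of the lymph node of the mouse aged 32 weeks and the row of Cox8b, which is low in kidney and high in several lymph nodes, can be seen.

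Kidney versus lymph node was the comparison in which members passed the test. Of the 77 members with a mean normalized value of at least 5, 28 were higher in kidney and 0 were lower at an adjusted p under 0.05 (limma on log2(value + 1), Benjamini-Hochberg over all genes), against 23.0% of all 7382 genes tested that were higher and 20.8% that were lower. That is 36.4% of the members. The median log2 difference was 1.02 (2.03-fold) over the members and -0.05 over all genes, and 73 of the 77 members had a higher mean log2 value in kidney. In 30 members each kidney library was above each lymph node library, which held for 25.5% of all genes, and the reverse held for 0 members and for 23.3% of all genes. Below the filter were Atp5s, Cox4i2, Cox6a2, Cox6b2 and Ndufa4l2.

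The count depended on single libraries and on the pairing of tissues by mouse. With the mouse as a replicate block 14 members were called, without the lymph node of the mouse aged 32 weeks there were 7 (1 of complex I), without the kidney of the mouse aged 25 weeks 9, without that of the mouse aged 32 weeks 17, and without the 3 libraries rich in ribosomal RNA also 17. As a share these were 18.2%, 9.09%, 11.7%, 22.1% and 22.1% of the members, against 20.8%, 20.1%, 18.1%, 22.6% and 21.0% of all genes called higher in the same fits, so that in these fits the share of members called was below or near that of all genes. The median log2 difference stayed between 0.67 and 1.2 when each library was left out in turn.

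**Figure D3:**
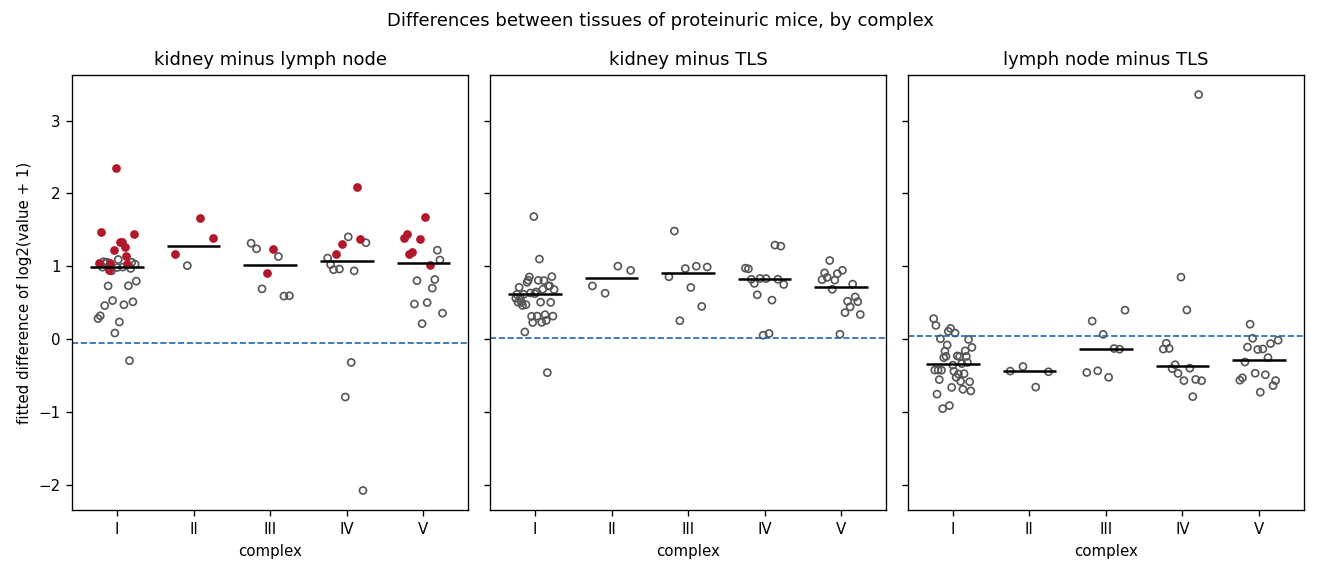
Fitted difference of log2(value + 1) for the 77 members in the 3 comparisons of tissues of proteinuric mice, by complex. Filled red points passed an adjusted p under 0.05 (limma), black lines are medians per complex and the dashed line is the median of all 7382 genes; 28 points are filled in kidney minus lymph node and 0 in the other panels, and the highest open point of lymph node minus TLS is Cox8b.

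Complex I had 12 of 35 members higher in kidney (median log2 difference 0.99), with 5 under the block. For this and the other complexes, the share of all genes called higher was 23.0%, and 20.8% with the block. Ndufb4, an accessory subunit, had the largest difference of all members. Its normalized values were 112, 95.9, 91.1 and 40.7 in kidney of the mice aged 25, 32, 36 and 39 weeks, and 3.24, 30.3 and 29 in lymph node of those aged 32, 36 and 39 weeks, an order of mice that is kept below. The groups did not overlap, though the first lymph node stood far below the other two. The log2 difference was 2.35 ± 0.66 (SE; adjusted p = 0.0129, limma). Ndufa12, another accessory subunit, had 133, 92.3, 95.3 and 54.8 in kidney and 13.8, 60.6 and 37.7 in lymph node. Here the lymph node of mouse 20 was above the kidney of mouse 6, and the log2 difference was 1.47 ± 0.48 (adjusted p = 0.025, limma). Ndufv1, a core subunit that binds NADH, and Ndufs8 and Ndufs5 were singled out after their values were seen. Ndufv1 had a log2 difference of 1.44 (adjusted p = 0.037, limma), while Ndufs8 had 0.51 and did not pass (adjusted p = 0.324, limma). Ndufs5 had the lowest difference of complex I, at -0.3 (adjusted p = 0.748, limma), and 0 reads in kidney of mouse 6.

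All 4 genes of complex II, which is also the succinate dehydrogenase of the citric acid cycle, had higher values in every kidney library than in any lymph node library, and 3 passed the test (median log2 difference 1.28; 2 under the block). Sdhc, a membrane anchor, had 97.4, 87, 48.9 and 35.4 in kidney and 14.6, 22.7 and 20.3 in lymph node. Each kidney value was thus above each lymph node value, and the log2 difference was 1.66 ± 0.39 (adjusted p = 0.00412, limma). Sdhd, the other anchor, had 265, 176, 132 and 147 in kidney and 51, 66.3 and 82.6 in lymph node. Its log2 difference was 1.39 ± 0.39 (adjusted p = 0.0109, limma). Sdha, the flavoprotein that oxidizes succinate, had a log2 difference of 1.17 ± 0.41 (adjusted p = 0.0369, limma; 0.0662 with the block). Sdhb, the iron-sulfur subunit, had values of 220, 174, 111 and 97.3 in kidney and 43.7, 94.7 and 84.1 in lymph node, and did not pass the test (adjusted p = 0.0824, limma).

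Complex III had 2 of 8 members higher in kidney (median 1.02), near the 23.0% of all genes. These were the core proteins Uqcrc2 (log2 difference 1.23 ± 0.45, adjusted p = 0.0408, limma) and Uqcrc1 (0.9 ± 0.33, adjusted p = 0.0433). With the block neither passed (adjusted p = 0.0695 and 0.111, limma). Uqcrc2 had 209, 95.9, 116 and 95.5 in kidney and 30.8, 54 and 81.2 in lymph node, so that the groups did not overlap but came close. The exons of Uqcrc2 overlap those of Pdzd9 on the other strand in the annotation. The Rieske iron-sulfur protein Uqcrfs1 had a log2 difference of 1.13 and did not pass (adjusted p = 0.0569, limma); it was named after its values were seen.

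Complex V had 7 of 16 members higher in kidney (median 1.05), with 5 under the block; the 16 include Atp5sl, which was not called (log2 difference 0.35). Atp5g3, which encodes the membrane ring subunit c, had the lowest adjusted p of all members. Its values were 224, 224, 193 and 207 in kidney and 47.8, 64.4 and 91.3 in lymph node, so the 4 kidneys were close to each other and far above every lymph node. The log2 difference was 1.68 ± 0.34 (adjusted p = 0.00142, limma). Atp5b, the catalytic beta subunit, had 869, 531, 405 and 417 in kidney and 142, 280 and 184 in lymph node (log2 difference 1.44 ± 0.42, adjusted p = 0.0147, limma). The other called members were Atp5a1, the catalytic alpha subunit, Atp5c1 and Atp5d of the central stalk, Atp5j of the peripheral stalk, and Atp5g1. The Atp5g genes encode the same mature subunit c. Atp5g1 had 40.6, 53.3, 24.5 and 23.9 in kidney and 13.8, 9.47 and 14.5 in lymph node (log2 difference 1.37 ± 0.35, adjusted p = 0.00682, limma). Atp5g2 had 116, 44.4, 57.4 and 48.6 in kidney and 42.9, 77.7 and 44.9 in lymph node, with overlap and no call (log2 difference 0.21, adjusted p = 0.734, limma). The difference between the Atp5g genes was not itself tested.

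Complex IV had 4 of 14 members higher in kidney (median 1.07), near the 23.0% of all genes, with 2 under the block (20.8% of all genes). The calls were Cox7c, Cox8a, Cox6c and Cox6a1. Cox7c, a small membrane subunit, had 71.9, 58.6, 37.1 and 19.5 in kidney and 5.67, 11.4 and 11.6 in lymph node, with no overlap (log2 difference 2.08 ± 0.45, adjusted p = 0.00232, limma). Cox8a, the isoform used in most tissues, had 992, 781, 482 and 386 in kidney and 175, 296 and 257 in lymph node, again with no overlap (log2 difference 1.38 ± 0.44, adjusted p = 0.0238, limma; 0.0554 with the block). Cox6a1, the isoform of most tissues of another subunit, had 826, 943, 615 and 481 in kidney and 176, 384 and 428 in lymph node (log2 difference 1.17 ± 0.42, adjusted p = 0.0401, limma; 0.0922 with the block). Cox4i1, Cox6b1, Cox7a2 and Ndufa4 had log2 differences of 1.11, 0.96, 1.4 and 1.32 and did not pass (adjusted p = 0.0638, 0.27, 0.0535 and 0.0868, limma). Counting Ndufa4 with complex I left the number of calls in both complexes as it was.

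Of complex IV, 3 members had negative differences, and none passed the test. Cox8b, the isoform of heart, skeletal muscle and brown fat, had 19.7, 12.4, 11.8 and 17.7 in kidney. In lymph node it had 19.4, 139 and 109, and in TLS 2.18, 48.7 and 0.848 at 25, 36 and 39 weeks, the last 0 reads. The values thus differed more within lymph node and within TLS than within kidney. The log2 difference of kidney and lymph node was -2.08 ± 1.04 (adjusted p = 0.134, limma), and that of lymph node and TLS was 3.36 (adjusted p = 0.0934). Without the TLS of mouse 20, Cox8b passed in all 3 comparisons of tissues (adjusted p = 0.0143 for kidney and lymph node and 0.00161 for lymph node and TLS, limma), and it passed with only kidney and lymph node in the fit (adjusted p = 0.0172).

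Cox7a1, the isoform of muscle and brown fat of another subunit, had 32.5, 26.6, 30.4 and 0.884 in kidney, the last 0 reads, and 4.86, 71.1 and 43.5 in lymph node. In TLS it had 15.3, 24.4 and 6.78. Kidney of mouse 6 stood apart with no read, and the groups overlapped (log2 difference of kidney and lymph node -0.8, adjusted p = 0.609, limma). Cox7a2l, which takes part in the assembly of respiratory supercomplexes, had a log2 difference of -0.32 (adjusted p = 0.529, limma), with 83.1 to 142 in kidney and 84.2, 121 and 216 in lymph node.

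Over the 7 lymph node libraries Cox8b and the brown adipocyte markers had the same order, apart from mouse 6 and the library labelled young, which changed places. The summed value of 5 such markers (Ucp1, Cidea, Elovl3, Plin5 and Otop1) was 72, 469 and 245 in lymph node, and 112 in TLS of mouse 20. It was 22.2, 130 and 1280 in antibody-positive lymph nodes of mice 10, 11 and 25, and 311 in the library labelled young. In all 4 kidneys and in the other two TLS libraries each of the 5 markers had 0 reads. Over the 7 lymph node libraries Cox8b was highest (241) in mouse 25 and lowest (6.49) in mouse 10, as were Ucp1 (581 and 8.34) and Cidea (657 and 11.1). Cox8b took 37.6% of the reads of Cox8a and Cox8b together in mouse 25 (Wilson 95% interval 33.7% to 41.7%), 31.9% in lymph node of mouse 20 and 2.65% in mouse 10. In kidney, where no brown adipocyte marker had a read, the share was 1.35% to 4.19%, from 6 to 19 reads of Cox8b. Cox7a1 did not follow the markers throughout, since 3 kidneys without a read on them had 26.6 to 32.5, more than TLS of mouse 20 (24.4). Nor did Cox8b, which was 11.8 to 19.7 in the kidneys, more than in the antibody-positive lymph node of mouse 10 (6.49). White adipocyte markers were also high in lymph node, with a summed value of 181, 2041 and 685 in the proteinuric mice, 258, 1221 and 2423 in antibody-positive mice 10, 11 and 25, and 1029 in the library labelled young, against 478 in TLS of mouse 20, at most 53.4 in the other TLS libraries and at most 86.9 in kidney. The part of adipose tissue in these values was not tested.

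**Figure D4:**
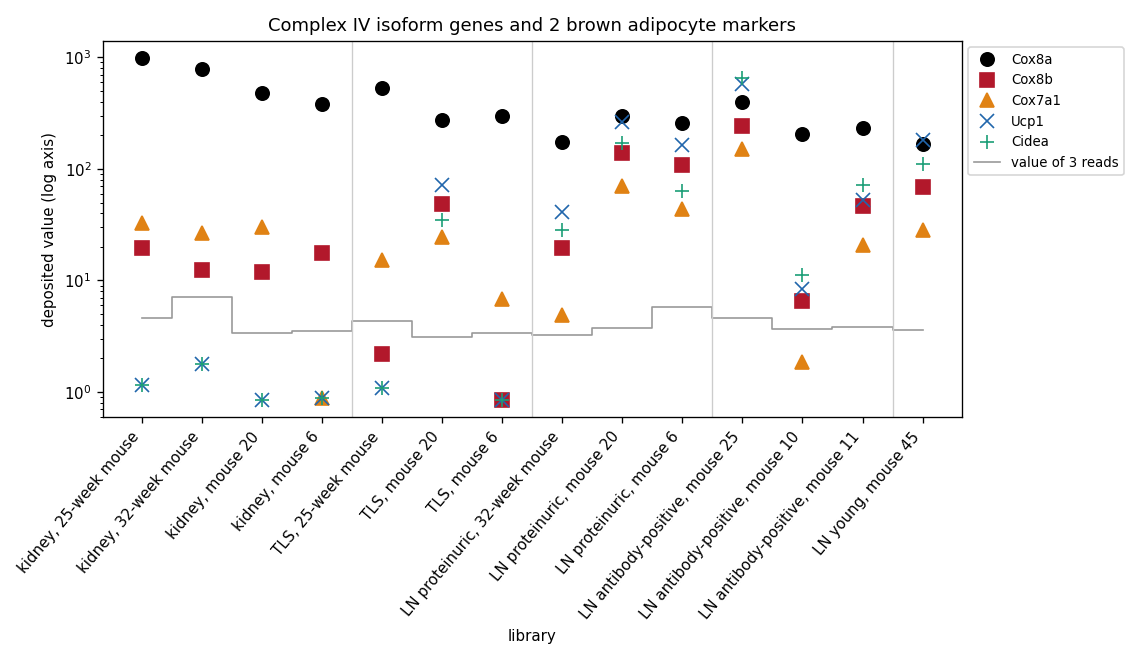
Normalized values (log axis) of the complex IV genes Cox8a, Cox8b and Cox7a1 and of the brown adipocyte markers Ucp1 and Cidea in the 14 libraries. The grey line is the value of 3 reads; Ucp1 and Cidea lie below it in all kidneys and in 2 TLS libraries, and Cox8b is highest, at 241, in the lymph node of mouse 25, where Ucp1 is 581.

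The other tissue isoforms were near the limit of detection and were not tested. Cox4i2, an isoform found in lung and in pericytes, had 0 reads in all kidneys, 0, 0 and 3 in TLS, and 1, 1 and 0 in lymph node. It had 8, 6 and 2 reads in the antibody-positive lymph nodes of mice 10, 11 and 25, and 5 in the library labelled young. Cox6a2, of heart and skeletal muscle, had 0 reads in all kidney and TLS libraries and 1 to 7 in the lymph node libraries. Cox6b2, known from testis, had normalized values of 3.48, 8.88, 7.59 and 3.54 in kidney and at most 1.9 in lymph node. Ndufa4l2, which is induced by hypoxia, had 2.32, 1.78, 5.9 and 3.54 in kidney, 2.18, 6.29 and 5.09 in TLS and at most 1.45, the value of 0 reads, in lymph node. Cox8c was not analysed here.

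Levels between genes are compared per kilobase of transcript. In kidney the highest mean value per kilobase was that of Ndufa4 (1750), followed by Atp5l (1380), Cox6a1 (1250), and Cox6b1 and Cox8a (both 1200). In lymph node the first 5 genes were the same, with Ndufa4 at 704 and Atp5l at 641. Atp5l has 14 near-identical copies among the annotated transcripts (at least 90% identity over at least 200 bases in the same orientation), the most of all members, so the reads of that gene and its copies could have been mixed. Of 81 members looked up, 31 had such a copy. The median log2 difference of kidney and lymph node was 0.95 in the 31 with a copy (11 called) and 1.04 in the 45 tested without one (17 called). Atp5o was not placed, because 2 gene models carry the symbol, and exons of 28 members overlap another gene.

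Kidney versus TLS gave 0 called members of 77 (limma, adjusted p under 0.05), against 6.07% of all genes that were higher in kidney and 8.62% that were lower. At an unadjusted p under 0.05, 16 members (20.8%) were higher and 0 lower, against 14.4% and 14.8% of all genes. The quasi-likelihood test of edgeR called 0 members, and DESeq2 called 1 higher (1.32%), against 4.17% of all genes. The median log2 difference was 0.68 (1.61-fold) over the members and 0.01 over all genes, and 76 of the 77 had a positive difference. In 13 members each kidney library was above each TLS library, against 12.0% of all genes, and in 0 each was below, against 13.4%. By complex the medians were 0.61, 0.83, 0.91, 0.82 and 0.72 from I to V. Uqcr11, a small subunit of complex III named after its values were seen, was closest to the threshold among members (log2 difference 1.48, adjusted p = 0.0542, limma). It had 410, 733, 304 and 269 in kidney and 157, 136 and 131 in TLS, with no overlap.

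Lymph node versus TLS also gave 0 called members (limma), against 1.69% of all genes that were higher in lymph node and 8.87% that were lower. At an unadjusted p under 0.05 there were 1 higher (Cox8b) and 1 lower (Ndufb2, log2 difference -0.92, named after its values were seen), against 7.76% and 14.9% of all genes, and edgeR and DESeq2 called 0. The median log2 difference was -0.35 over the members and 0.04 over all genes, and 14 of 77 members were above 0. With the mouse as a block the median was -0.03, without the lymph node of the mouse aged 32 weeks it was 0.01, and without the TLS of the mouse aged 25 weeks it was -0.09. In 4 members each lymph node library was below each TLS library, against 17.4% of all genes, and in 0 above, against 9.48%. Kidney, TLS and lymph node share libraries between these comparisons, so they are not independent.

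The 3 TLS libraries lay at different places between lymph node and kidney. For the 41 members whose kidney mean was 2 or more times that of lymph node, the median position was 51.1% of the way from the lymph node mean to the kidney mean for the mouse aged 25 weeks, 14.5% for mouse 20 and 3.98% for mouse 6. The 10 proximal tubule markers had the same order, with 42.4%, 24.5% and 10.5%. The 12 mtDNA-encoded genes past the same limit had 166%, 65.5% and 3.67%. The order differed in other sets, with 51.1%, 7.63% and 17.9% for the members of complex V alone, 26.5%, 5.22% and 6.58% for distal convoluted tubule markers, 26.5%, 30.7% and 11.1% for podocyte markers and 84.4%, 81.8% and 186% for collecting duct markers. The members were chosen for this by their kidney and lymph node values, so that only the TLS values are a measurement here, and no test was made.

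**Figure D5:**
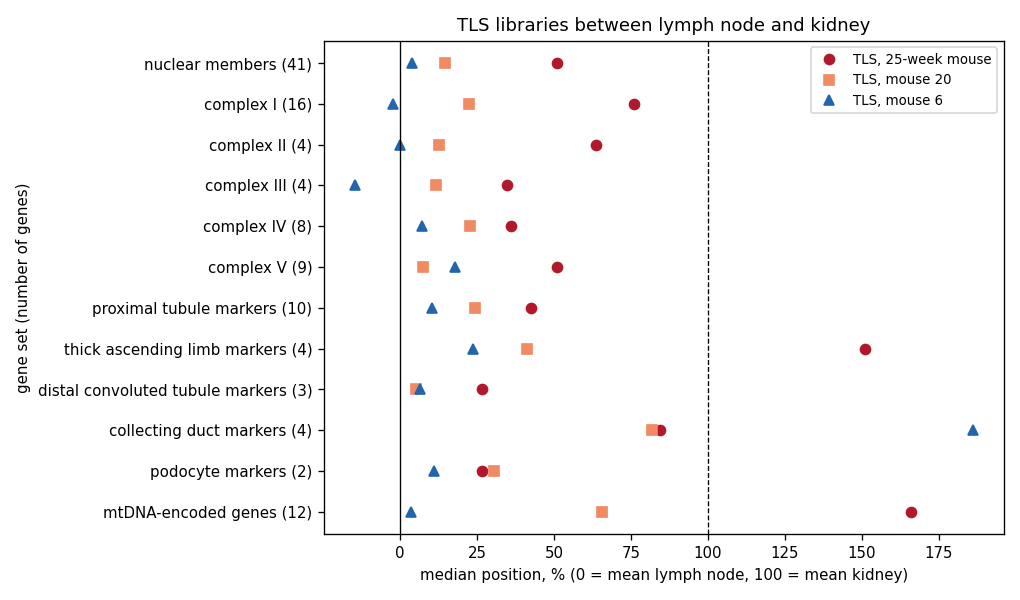
Median position of each TLS library between the mean of lymph node (0%) and the mean of kidney (100%), for the genes of each set whose kidney mean was 2 or more times that of lymph node (number in brackets). The nuclear members lie at 51.1%, 14.5% and 3.98% in the mouse aged 25 weeks and mice 20 and 6, and the proximal tubule markers at 42.4%, 24.5% and 10.5%.

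Disease state in the lymph node was compared in 6 libraries, with kit and age differing between the states as given above. Antibody-positive versus proteinuric lymph node gave 0 called members of 76 (limma), and 0.0% of all 6810 genes were called higher and 0.0% lower. At an unadjusted p under 0.05 (limma) there were also 0 members, while 124 genes in all were higher (1.82%) and 91 lower (1.34%). The edgeR and DESeq2 tests called 0 members, and of all genes DESeq2 called 4 higher and 9 lower. In 0 members did the groups not overlap in either direction, against 6.08% of all genes with antibody-positive higher and 2.5% lower. The median log2 difference was 0.2 over the members and 0.08 over all genes, without the lymph node of mouse 25 it was -0.16, and without the proteinuric one of the mouse aged 32 weeks -0.13. The share of nuclear reads on members was 1.41%, 1.7% and 3.05% in mice 10, 11 and 25, and 1.79% in the library labelled young. The library of mouse 25 thus lay above every other lymph node library, also in 58 of the 77 members (75.3%, against 19.2% of all genes). It also held the most reads on brown adipocyte markers and on striated muscle markers (normalized values of 108 for Acta1 and 107 for Ckm). The part of these tissues in its member values was not tested.

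Of the 13 mtDNA-encoded subunits, 9 were higher in kidney versus lymph node (69.2%, against 23.0% of all genes, limma). Their median log2 difference was 2.15. The number called was 11 with the block and 4 without the lymph node of mouse 6, against 20.8% and 20.7% of all genes. mt-Nd4l, of complex I, had a log2 difference of 2.71 (adjusted p = 0.00631, limma) and mt-Nd4 of 2.37 (adjusted p = 0.0141). Reads on the 13 genes per read on the 82 nuclear members were 5.56, 2.06, 4.06 and 6.76 in kidney. The ratio was 7.81, 6.22 and 2.26 in TLS, 3.22, 2.42 and 1.03 in lymph node, 4.25, 3.26 and 8.49 in the antibody-positive lymph nodes of mice 10, 11 and 25, and 6.29 in the library labelled young. Of the libraries rich in ribosomal RNA, the kidney of the mouse aged 32 weeks and the lymph node of mouse 6 had the lowest ratio of their tissue, and the TLS of the mouse aged 25 weeks had the highest; the part of this in the ratio was not tested. Neither kidney versus TLS nor lymph node versus TLS had a called gene of these 13 (limma).

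Among genes that act with the complexes, the matrix enzymes and carriers had calls, all in the same direction. Of 14 citric acid cycle genes 6 were higher in kidney than in lymph node (median 0.95), which is 42.9%, against 23.0% of all genes. With the block 5 were called, and without the lymph node of the mouse aged 32 weeks 3, against 20.8% and 20.1% of all genes. Suclg2, the GTP-forming subunit of succinyl-CoA ligase, had the largest difference, with 80, 74.6, 81 and 91.1 in kidney and 8.9, 11.4 and 14.5 in lymph node (log2 difference 2.74 ± 0.31, adjusted p = 1.98e-05, limma). Suclg2 was also higher in kidney than in TLS (1.43, adjusted p = 0.00891, limma) and lower in lymph node than in TLS (-1.31, adjusted p = 0.0241, limma; 0.109 with the block). Idh2, which makes mitochondrial NADPH, had a difference of 1.86 (adjusted p = 0.00278, limma). Of 14 membrane and import genes 5 were higher in kidney than in lymph node (35.7%, against 23.0% of all genes). Among them were the outer membrane pore Vdac1 (2.19, adjusted p = 0.00016, limma) and the scaffold protein Phb (1.76, adjusted p = 0.00557). Vdac1 was higher in kidney than in TLS as well (1.16, adjusted p = 0.0318, limma), a call kept in 11 of 22 alternatives and lost, for example, without the 3 libraries rich in ribosomal RNA (0.0619) and without the TLS of mouse 20 (0.0772) or mouse 6 (0.133).

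Atpif1, the inhibitor of the ATP synthase, had 239 in kidney of the mouse aged 25 weeks and 102 to 124 in the other kidneys, 121, 56.6 and 72.9 in TLS and 14.6, 30.3 and 21.7 in lymph node, with kidney and lymph node and also lymph node and TLS free of overlap. Its log2 difference was 2.62 ± 0.41 between kidney and lymph node (adjusted p = 0.000242, limma) and -1.85 between lymph node and TLS (adjusted p = 0.0172; 0.0648 with the block). It was the 1 called of 3 complex V assembly and regulation genes tested. Of the assembly factors, those called higher in kidney versus lymph node were 2 of 9 for complex I (22.2%, near the 23.0% of all genes) with Ndufaf6 at 1.65 and Acad9 at 1.49, 1 of 14 for complex IV (Cox15 at 1.08, adjusted p = 0.0411, limma; 0.0984 with the block) and 0 of 3 and 0 of 4 for complexes II and III. Ndufaf6, which had few reads, was higher in kidney than in TLS too (1.43, adjusted p = 0.0278, limma; kept in 13 of 21 alternatives and lost, for example, at 0.0835 without the TLS of mouse 20). Of 4 further subunits and carriers (Ndufab1, Cyc1, Cycs and Usmg5), Cyc1, cytochrome c1 of complex III, was called (1.44, adjusted p = 0.0113, limma).

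Of 14 regulators listed, 7 were tested and the others were below the filter. Of these 7, 2 were higher in kidney than in lymph node (28.6%, near the 23.0% of all genes). They were Esrra (1.21, adjusted p = 0.0449, limma) and Tfb2m, a mitochondrial transcription factor (1.00, adjusted p = 0.0433), and neither was called with the block (adjusted p = 0.0655 and 0.103, limma). Gabpa, Yy1 and Tfam, named after their values were seen, had -0.25, -0.75 and -0.64 and did not pass (adjusted p = 0.575, 0.107 and 0.1, limma). Gabpa had few reads, 1 to 8 in each library. Glycolysis genes had 3 of 13 higher in kidney (23.1%, as in all genes; median 0.65), with Tpi1 (1.88, adjusted p = 0.00175, limma) and Pfkm (1.4, adjusted p = 0.00727) the largest. No gene of these lists was called lower in kidney than in lymph node.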

How the data were processed

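Libraries of poly(A) RNA were sequenced on an Ion Torrent PGM. By the study's methods, mapping and counting were done in CLC Genomics Workbench on GRCm38, while the submitters' processing notes list BWA, HTSeq and mm9 for all samples without saying which. The authors deposited a signal per gene that equals whole reads with 1 added over a size factor; this was read from the values and is not given in the sources used here. In 100% of values, the signal divided by the lowest of its library was whole within 0.001 reads, so reads were recovered.

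Differences were tested on log2(value + 1) with limma 3.58.1 (trend and robust moderation, R 4.3.3) for genes whose mean value was 5 or more, in a fit of 10 libraries of proteinuric mice and a fit of 6 lymph node libraries, with Benjamini-Hochberg adjustment over all genes tested. The test was tried on simulated data. Replicates are separate mice. Members, gene lists and tests were chosen with earlier results of these data known.

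Named genes were, by rule, the 2 called members with the largest difference per complex and direction, all tissue isoforms, complex II, and the 2 leading called genes of each list. Alternatives included edgeR 4.0.16 and DESeq2 1.42.0 on the recovered reads, other filters, pseudocounts and scalings, and each library left out. Mouse numbers pair tissues of the same animal. Deviations from the tissue means correlated across genes at 0.454, 0.364 and 0.351 in kidney and TLS of the same mouse, at -0.335, 0.202 and -0.326 in kidney and lymph node, and at 0.0254 and -0.266 in lymph node and TLS. Pairs from different mice ranged from -0.498 to 0.361, from -0.353 to 0.512 and from -0.211 to 0.293 in the same order. The highest of each range joined libraries rich in ribosomal RNA. Values above 0.35 were thus not limited to tissues of the same mouse. Copies were found with blastn 2.17.0 in GENCODE M21 transcripts. The whole-kidney libraries of the series were not analysed here, and 1 member is counted but not reported by name.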

Additional observations from a re-analysis of the deposited data

Results flagged for a closer look

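Of 48 values tested over the 4 kidney libraries, 3 had a library far from the others by Dixon's ratio at the 95% level, and chance alone gives about 1 in 20. In each the kidney of the mouse aged 25 weeks was the highest. Atpif1 was 239 there and at most 124 in the other kidneys (ratio 0.835), Tpi1 358 and at most 199 (0.856), and mt-Nd4l 5880 and at most 1740 (0.858). In the lymph node library labelled young, which entered no comparison, Cox8b had a normalized value of 68.9, above the 3.58 that a count of 3 reads gives there.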

How the results depend on the processing

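The direction of the members' median between kidney and lymph node and between kidney and TLS was kept under every alternative run. The number of members higher in kidney than in lymph node (28) was 47 with values rescaled to the reads outside ribosomal RNA genes, 45 with all 7 lymph node libraries, 17 without the 3 libraries rich in ribosomal RNA and 7 to 37 when each library was left out in turn. With the mouse as a replicate block it was 14. The number lower (0) was 1 with no filter on low values (Cox6a2), 1 with only the 2 tissues compared (Cox8b) and 0 to 1 with a library left out. Members higher in kidney than in TLS (0) were 1 with DESeq2, 2 with a mean value of at least 20, 3 with that rescaling, 2 with only the 2 tissues compared and 0 to 3 with a library left out. In each of these fits the share of members called was below that of all genes. Members higher in lymph node than in TLS (0) were 1 with no filter and 0 to 1 with a library left out, and lower (0) 1 with all 7 lymph node libraries. The cause of these changes was not tested. Of the calls named by rule the block ended those of Sdha, Uqcrc1, Uqcrc2, Cox8a, Cox6a1, Cox15, Esrra and Tfb2m between kidney and lymph node. It also ended those of Atpif1 and Suclg2 between lymph node and TLS, and no other named by rule. Atp5c1 and Atp5j, listed above as called in complex V, were not called with the block either (adjusted p = 0.0653 and 0.0587, limma). Antibody-positive versus proteinuric lymph node stayed at 0 called members, with a median from -0.16 to 0.42. Of the 33 calls of named genes, 360 of 419 refits kept the call, as did 259 of 330 with a library left out, and none changed sign. TMM moved the median of all genes by -0.18 in lymph node versus TLS and by -0.12 in kidney versus TLS. For the 2 members past 4-fold the TLS position was 14.3% on average, against 23.2%. Depth limits the isoforms with few reads.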
